A study of Homo sapiens with 6 samples.

Results

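The genes described here encode the core of the NF-κB pathway: 4 subunits of the transcription factor (NFKB1, NFKB2, RELA and RELB), 3 inhibitors that hold it in the cytoplasm (NFKBIA, NFKBIB and NFKBIE), 2 kinases that release it (IKBKB and CHUK) and the ubiquitin-editing enzyme TNFAIP3, also called A20. They were chosen by name, as were the lists below, with earlier results of these data known. The shares called are therefore descriptions of sets not picked blind. All 10 of 10 were found among the 56638 gene symbols of the count files. All 10 also had enough reads to be among the 14685 genes tested. RNA sequencing was done on cells labelled HT29, an established human colorectal cancer line, at passages 16 to 19. Of the 6 libraries, 3 came from cells given a nonspecific siRNA as the control, with the genotype given as wild type, and the other 3 from cells given an siRNA against RNF6, a RING-type E3 ubiquitin ligase. The sources used here do not give the time from transfection to harvest, the siRNA sequence or how many siRNAs were used. Libraries are numbered by their replicate number.

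In resting cells NF-κB dimers are bound by IκB proteins, the products of NFKBIA, NFKBIB and NFKBIE. When a receptor for tumour necrosis factor, interleukin 1 or a microbial ligand is engaged, the IκB kinases phosphorylate IκB, a ubiquitin ligase with a β-TrCP subunit marks it for the proteasome, and the freed dimer enters the nucleus. Several genes that it activates encode its own inhibitors and subunits, which makes the pathway a set of feedback loops. In the intestinal epithelium the pathway is known for its part in inflammation, survival and tumour growth. The series places the knockdown in the question of JAK/STAT3 signalling, and the comparison below asks which NF-κB core transcripts differed between the siRNAs. Phosphorylation, IκB degradation and nuclear entry were not measured.

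Transcripts of 6 of the 10 genes fell after RNF6 siRNA: CHUK, NFKBIE, RELA, TNFAIP3, RELB and IKBKB. NFKBIB rose, and NFKB1, NFKB2 and NFKBIA did not pass the test. The called genes made up 70% of the 10, where 32.7% of all tested genes were called in either direction, 16.1% lower and 16.6% higher. The median log2 fold change of the 10 was −0.38, against 0.01 over all tested genes. For 8 of the 10 no RNF6 siRNA library lay within the control range or the reverse, 7 with RNF6 siRNA wholly below and 1 wholly above, where 44.2% of all tested genes had no overlap, 21.8% wholly below and 22.4% wholly above. The changes were mostly small, between 1.28-fold and 1.84-fold for the genes that passed. Several of the calls ended with 1 library left out. Without control library 3 only 2 of the 10 were called lower, and 3 without RNF6 siRNA library 2 or 3. Without control library 3 the log2 fold change grew for RELB (−0.42 to −0.48) and TNFAIP3 (−0.42 to −0.46). It shrank for NFKBIE (−0.60 to −0.51) and IKBKB (−0.35 to −0.34), and the SE rose for each of these genes. The number of calls over all tested genes also changed with the library left out, as given in the last section. RELA, CHUK and NFKBIB were called in each of the 14 alternatives tried.

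Gene counts summed to between 6808771 and 11071456 reads per library, and a member had between 78 and 1736 reads in a library. RNF6 itself was at 54.3, 45.2 and 57.8 CPM (read counts scaled by TMM to a common library size) in the control libraries and at 16.5, 16.2 and 16.9 CPM after RNF6 siRNA, 3.17-fold lower (adjusted p = 2.12e-06, log2 fold change −1.66 with SE 0.126). The labels do not say that replicates were separate cultures, so the spread behind every p-value is that of these libraries and may be technical. Of 12 markers of colon epithelial cells, EPCAM (206.6 to 242.3 CPM), CDH1 and CDX2 were present, while 5 stayed below 1 CPM in every library, namely CDX1, VIL1, CEACAM5, CEACAM6 and LGALS4. CDX1 and CEACAM6 had 0 reads, which allows up to 0.269 to 0.443 CPM depending on the library. With these 5 absent or nearly so, the labelled identity of the line is in doubt, and it was not tested further. The epithelial markers with the highest mean CPM over all 6 libraries, the keratins KRT8, KRT18 and KRT19, fell 2.44-fold, 3.07-fold and 1.51-fold, and 4 of 7 tested markers of this list fell. The other that fell was KRT20, named after its values were seen and scarce, with at most 21 reads. It was at 1.99 ± 0.534 CPM in control and 0.633 ± 0.192 CPM after RNF6 siRNA, 3.04-fold lower (adjusted p = 0.00549). In the RNF6 siRNA libraries EPCAM was above KRT18, which was at 103.9 to 127.5 CPM there. Their part in the results on NF-κB genes was not tested. Markers of immune cells summed to 4.68 to 6.61 CPM in control and 2.95 to 4.69 CPM in RNF6 siRNA libraries, with 8 of the 12 below 1 CPM in every library and CD3D and CD68 at 0 reads. CSF1R, with the highest CPM of these, fell 2.04-fold from at most 28 reads (adjusted p = 0.0332), but did not pass in 5 of the 14 alternatives. Among them were DESeq2 (0.0735) and the fits without control library 3 (0.147) or RNF6 siRNA library 2 (0.0583) or 3 (0.162). The alternatives spanned 0.0149 to 0.162. Markers of fibroblasts and endothelium summed to 53.5 to 71.1 and 75.3 to 91.5 CPM, mostly COL1A1, which rose 1.33-fold. Of the 4 tested markers of that list 2 rose, 1 fell and 1 did not pass. ACTA2 (2.17-fold higher, adjusted p = 0.00553) and VWF (2.02-fold lower, adjusted p = 0.0283), named after their values were seen, had at most 65 and 21 reads. VWF did not pass in 6 of the 14 alternatives, among them DESeq2 (0.109) and the fits without control library 2 (0.0782) or 3 (0.119). It also did not pass without RNF6 siRNA library 1 (0.0630) or 3 (0.122), and its alternatives spanned 0.0147 to 0.122. Of these 12 markers 8 were below 1 CPM in every library, COL1A2, COL3A1, DCN and LUM among them, and PECAM1 had 0 reads. The COL1A1 call (adjusted p = 0.0197) ended in 4 of the 14 alternatives. Among them were the fits without control library 3 (0.0793) and without RNF6 siRNA library 1 (0.0690) or 3 (0.0727), and the alternatives spanned 0.00534 to 0.0969. These were bulk samples, in which fewer cells of a type and less RNA per cell cannot be told apart.

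NF-κB binds a site of 10 bases, the κB element, and the best-known feedback genes carry it close to their start site. RefSeq promoter windows (GRCh38.p14, 250 bases before to 50 after a start site) were found for 7 of the 10 genes: NFKB1, NFKB2, RELA, NFKBIA, NFKBIB, CHUK and TNFAIP3. The κB consensus, searched on both strands, was in at least 1 window of 5 of these 7 genes, which had 12 windows. It was in 6.90% of the 14444 windows of tested genes, or 9.22% of tested genes with a window. Over all genes it was in 5.91% of all 35116 windows of that length, or 7.09% of all genes. Of the genes that hold a match, NFKBIB rose and TNFAIP3 fell. NFKB1, NFKB2 and NFKBIA did not pass the test, with log2 fold changes of −0.28, −0.06 and −0.18. No match was in the windows of RELA and CHUK, which both fell. A link between the matches and the changes was not tested. Capitals mark the match, each line runs 5′ to 3′ on the strand of the gene, and a match on the other strand reads as its reverse complement.
NFKB1, chr4:102501300-102501329, plus strand: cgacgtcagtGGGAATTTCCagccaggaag
NFKB2, chr10:102394461-102394490, plus strand: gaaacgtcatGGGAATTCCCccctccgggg
NFKB2, chr10:102394490-102394519, plus strand: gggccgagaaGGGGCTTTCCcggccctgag
NFKB2, chr10:102395674-102395703, plus strand: tggtattttcGGGACTTTCCtaagctgctc
NFKBIA, chr14:35404811-35404840, minus strand: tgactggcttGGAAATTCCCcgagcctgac
NFKBIB, chr19:38899931-38899960, plus strand: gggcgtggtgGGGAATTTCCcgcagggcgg
TNFAIP3, chr6:137867182-137867211, plus strand: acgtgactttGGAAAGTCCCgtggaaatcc
TNFAIP3, chr6:137867194-137867223, plus strand: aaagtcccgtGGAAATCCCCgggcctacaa
The first matching base lay 49 bases before the start site in NFKB1, 81 before it in NFKBIA, 28 before it in NFKBIB, and 67 and 55 before it in TNFAIP3. The 3 sites of NFKB2 belong to 2 alternative start sites, 107 and 78 bases before one and 21 before the other. NFKB2 had a further match of the consensus 176 bases before that other start site, and in NFKB2 and NFKBIB a match shifted by 1 base overlapped the one shown. A match describes the letters of the window and not binding, which was not measured.

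RELA encodes p65, the subunit with a transactivation domain that drives most canonical NF-κB transcription. Its level was 97.3, 105 and 98.7 CPM in control libraries 1, 2 and 3, against 78.4, 72.8 and 68.9 CPM in RNF6 siRNA libraries 1, 2 and 3. Every RNF6 siRNA library lay under every control library, and the gap of 18.8 CPM between the groups exceeded the range within either. The means were 100.4 ± 4.30 and 73.4 ± 4.81 CPM (SD, n = 3), so RELA fell 1.37-fold (adjusted p = 0.00438, log2 fold change −0.45 with SE 0.101). The adjusted p stayed between 8.75e-04 and 0.0431 over the alternatives.

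RELB, the subunit that pairs with the NFKB2 product p52 in the non-canonical pathway, had 15.3, 18.02 and 14.8 CPM in the control libraries and 13.6, 11.5 and 10.9 CPM in the RNF6 siRNA libraries. The groups did not overlap, although the lowest control library and the highest RNF6 siRNA library were only 1.22 CPM apart. RELB fell 1.34-fold (adjusted p = 0.0427, log2 fold change −0.42 with SE 0.146). It no longer passed without control library 2 (adjusted p = 0.152) or 3 (0.0688), without RNF6 siRNA library 2 (0.108) or 3 (0.174), with upper-quartile scaling (0.0541) and with DESeq2 (0.0776), and the alternatives spanned 0.0246 to 0.174.

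NFKB1 encodes p105, the precursor of p50, which is the usual partner of p65. It was at 27.2, 30.3 and 30.3 CPM in control and at 25.7, 21.3 and 25.1 CPM in RNF6 siRNA libraries. The groups did not overlap, but the difference did not pass the test (log2 fold change −0.28, 95% interval −0.54 to −0.02, adjusted p = 0.0942). Without control library 1 it passed (−0.33, adjusted p = 0.0434), and over the alternatives its adjusted p ran from 0.0434 to 0.254. NFKB2, which encodes p100, the precursor of p52 and an inhibitor of RELB dimers, was at 128, 167 and 154 CPM in control and 159.6, 143 and 128 CPM in RNF6 siRNA libraries. The groups overlapped over most of their range (log2 fold change −0.06, 95% interval −0.32 to 0.20, adjusted p = 0.725). As a ratio of RNF6 siRNA to control, that interval ran from 0.800 to 1.15. The direction turned without control library 2 (0.02) or RNF6 siRNA library 3 (0.01).

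**Figure D1:**
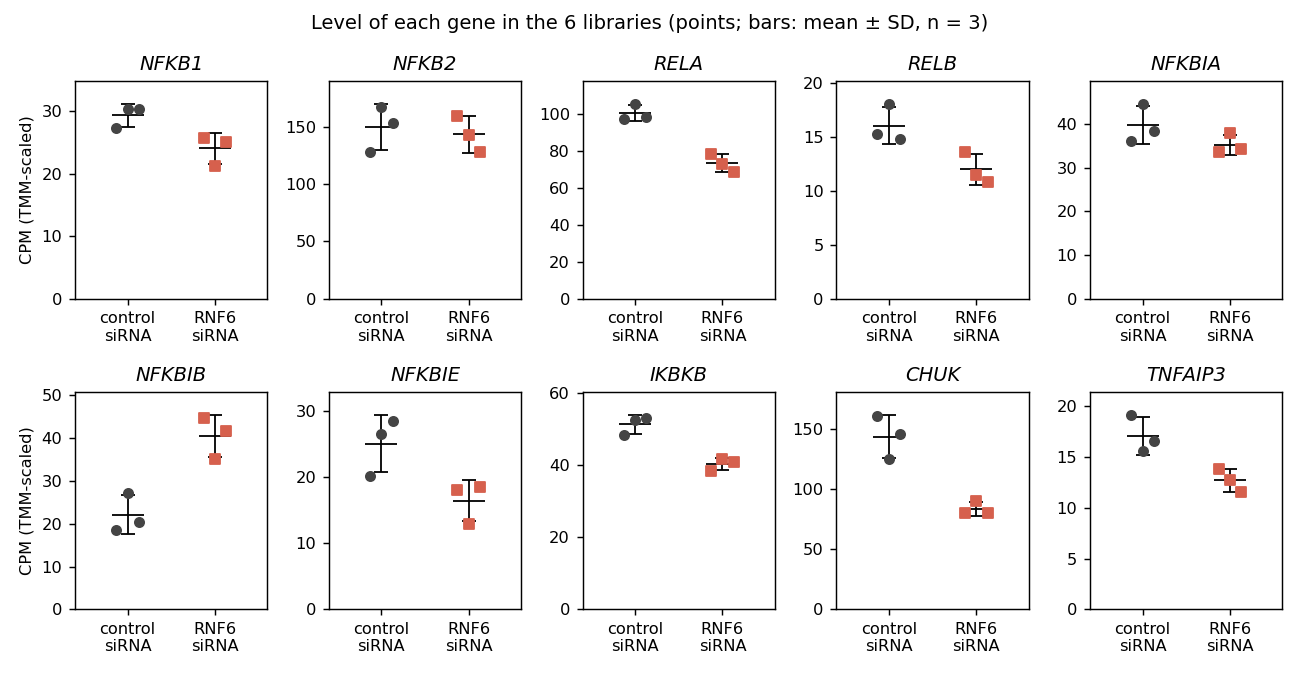
Level of each gene in CPM (vertical axis, from 0) in the 3 control siRNA libraries (circles) and the 3 RNF6 siRNA libraries (squares), with horizontal lines for the mean and bars for the SD (n = 3). The groups are separate for 8 genes and overlap for NFKB2 and NFKBIA, and NFKBIB is the gene whose RNF6 siRNA libraries lie above the control libraries.

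Of the 3 inhibitors 1 rose, 1 fell and 1 did not pass the test. NFKBIB encodes IκBβ, an inhibitor of p65 dimers. Its level was 18.6, 27.2 and 20.5 CPM in control libraries and 44.7, 35.1 and 41.7 CPM after RNF6 siRNA. The lowest RNF6 siRNA library was 7.93 CPM above the highest control library. NFKBIB rose 1.84-fold, from 22.1 ± 4.53 to 40.5 ± 4.89 CPM (adjusted p = 8.30e-04, log2 fold change 0.88 with SE 0.150), and its adjusted p did not exceed 0.0128 in any alternative. Its exons overlap those of SIRT2, on the opposite strand, for 1.72% of their length in GENCODE release 29, and the strand setting of the counting is not given. SIRT2 was at 29.8 ± 3.11 and 31.1 ± 1.90 CPM (SD, n = 3).

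NFKBIE encodes IκBε, an inhibitor that NF-κB induces with a delay. It was at 20.2, 26.5 and 28.5 CPM in control and at 18.02, 12.8 and 18.5 CPM in RNF6 siRNA libraries. The groups did not overlap, with control library 1 and RNF6 siRNA library 3 only 1.75 CPM apart. NFKBIE fell 1.51-fold, from 25.1 ± 4.31 to 16.4 ± 3.13 CPM (adjusted p = 0.0145, log2 fold change −0.60 with SE 0.165). It no longer passed without control library 3 (adjusted p = 0.0780) or RNF6 siRNA library 2 (0.0619), and the alternatives spanned 2.26e-04 to 0.0780. NFKBIA encodes IκBα, the inhibitor that is degraded and resynthesised fastest. It was at 36.2, 44.5 and 38.5 CPM in control and 33.7, 37.9 and 34.3 CPM in RNF6 siRNA libraries, where the ranges overlapped (log2 fold change −0.18, 95% interval −0.43 to 0.08, adjusted p = 0.272).

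CHUK encodes IKKα, the kinase that also drives processing of p100 in the non-canonical pathway. It had the smallest adjusted p of the 10 genes. Its level was 160.7, 125 and 146 CPM in control and 80.5, 90.5 and 80.3 CPM in RNF6 siRNA libraries. The groups were 34.7 CPM apart at their closest, between control library 2 and RNF6 siRNA library 2. CHUK fell 1.72-fold, from 143.9 ± 17.9 to 83.7 ± 5.84 CPM (adjusted p = 2.42e-04, log2 fold change −0.78 with SE 0.113). Exons of other genes overlap 1.65% of its length, a part of it with ERLIN1, which rose 1.56-fold.

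IKBKB encodes IKKβ, the main kinase of IκB in the canonical pathway. Its level was 48.4, 52.7 and 53.0 CPM in control and 38.5, 41.6 and 40.9 CPM in RNF6 siRNA libraries, with no overlap. IKBKB fell 1.28-fold (adjusted p = 0.0206, log2 fold change −0.35 with SE 0.104). It no longer passed without control library 3 (adjusted p = 0.0934) and without RNF6 siRNA library 1 (0.0718) or 3 (0.0695), and the alternatives spanned 0.00713 to 0.1002. TNFAIP3, whose product removes ubiquitin chains from RIPK1 and so dampens the pathway, was at 19.1, 15.6 and 16.5 CPM in control and 13.8, 12.7 and 11.6 CPM in RNF6 siRNA libraries. No library overlapped the other group, with the closest pair 1.76 CPM apart. TNFAIP3 fell 1.34-fold (adjusted p = 0.0333, log2 fold change −0.42 with SE 0.139). It no longer passed without control library 1 (adjusted p = 0.0734) or 3 (0.0793), without RNF6 siRNA library 2 (0.0753) or 3 (0.145) and with DESeq2 (0.0627), and the alternatives spanned 0.0255 to 0.145.

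**Figure D2:**
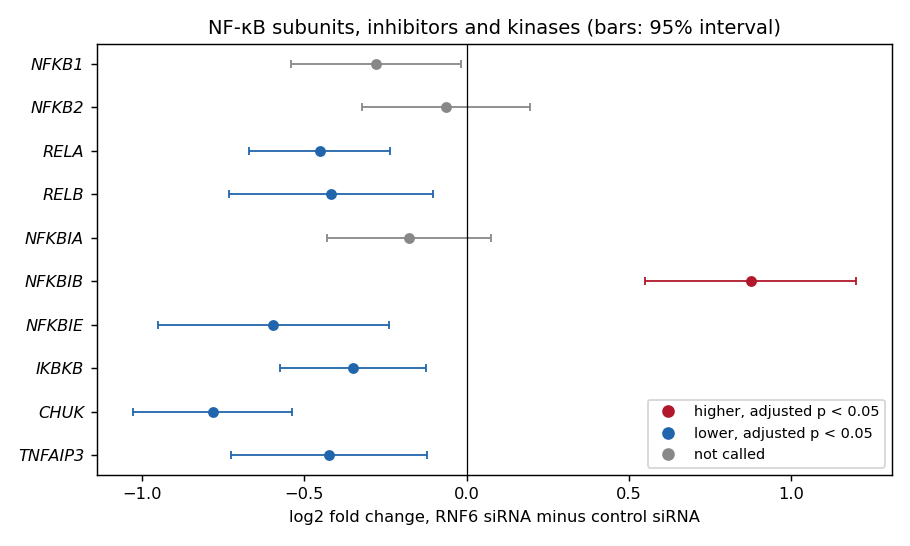
Log2 fold change of each gene, RNF6 siRNA minus control siRNA (horizontal axis), with its 95% interval, coloured by whether it passed an adjusted p below 0.05. NFKBIB stands at 0.88 and the 6 genes that fell between −0.78 (CHUK) and −0.35 (IKBKB), while the intervals of NFKB2 and NFKBIA include 0. The interval of NFKB1 (−0.54 to −0.02) lies below 0, but NFKB1 did not pass (adjusted p = 0.0942). The intervals are not adjusted for the number of genes tested.

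Ratios within a library, which need no scaling between libraries, were taken for 3 pairs of the genes from read counts not divided by length. IKBKB reads per CHUK read were 0.301, 0.421 and 0.363 in control and 0.479, 0.460 and 0.509 in RNF6 siRNA libraries, a ratio 1.35-fold higher. NFKBIA reads per RELA read were 0.372, 0.423 and 0.390 in control and 0.429, 0.521 and 0.499 in RNF6 siRNA libraries, 1.22-fold higher. In both pairs the groups did not overlap, and the exact permutation p was 0.1 (two-sided, adjusted 0.15 over the 3 ratios), the smallest that 3 against 3 libraries can give. NFKB2 reads per NFKB1 read ran from 4.70 to 5.51 in control and from 5.09 to 6.71 in RNF6 siRNA libraries, and these ranges overlapped (exact permutation p = 0.2, adjusted 0.2).

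Levels can be ranked between genes only per length, so CPM was divided by the kilobases of exon of each gene in GENCODE release 29 (RPKM). Among the control libraries NFKB2 was the most abundant of the 10 at 33.4 ± 4.45 RPKM (SD, n = 3), and its lowest library was above every library of the others. CHUK (20.8 ± 2.58 RPKM), RELA (18.4 ± 0.787 RPKM) and NFKBIA (16.7 ± 1.82 RPKM) came next, with overlapping ranges between neighbours. NFKBIE (9.72 ± 1.67 RPKM) and NFKBIB (9.50 ± 1.95 RPKM) overlapped each other and lay apart from both sides. RELB was at 5.28 ± 0.570 RPKM, NFKB1 at 4.68 ± 0.283, IKBKB at 4.57 ± 0.228 and TNFAIP3 lowest at 3.38 ± 0.365 RPKM, and only NFKB1 and IKBKB overlapped as neighbours. By group mean, NFKBIB was at rank 6 in control and rank 2 after RNF6 siRNA (17.4 ± 2.10 RPKM), and CHUK at rank 2 and rank 5 (12.1 ± 0.843 RPKM). Neither was apart from its neighbour after RNF6 siRNA: NFKBIB (15.1 to 19.2 RPKM) overlapped NFKBIA (14.2 to 16.0 RPKM), and CHUK (11.6 to 13.1 RPKM) overlapped RELA (12.6 to 14.4 RPKM). Union exon length counts every annotated exon, so the level of a gene is understated where part of that length is not used in these cells. IKBKB had the longest union of the 10, at 11241 bases.

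**Figure D3:**
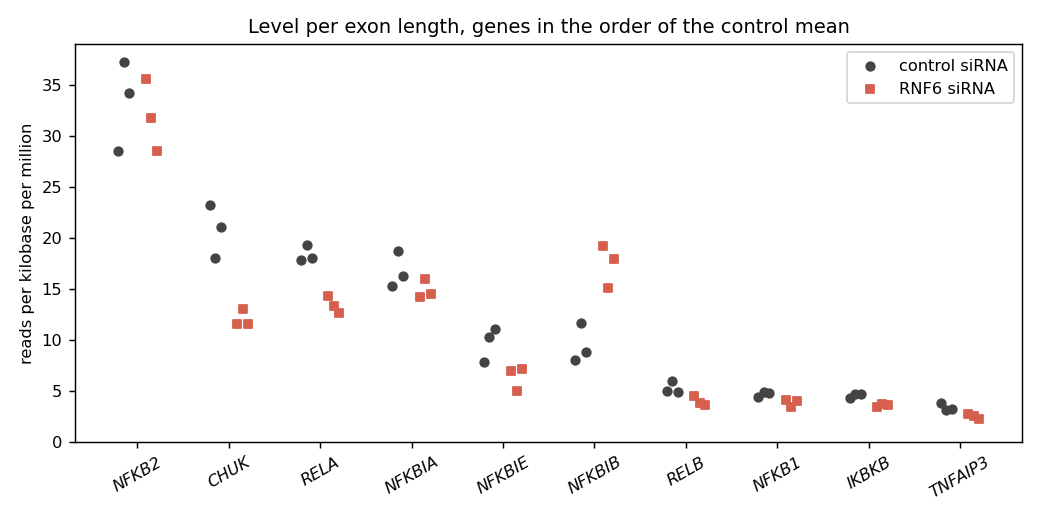
Level of each gene in RPKM (vertical axis, from 0) in each control siRNA library (circles) and RNF6 siRNA library (squares), with genes in the order of their control mean. NFKB2 is highest in both groups at 33.4 and 32.0 RPKM on average, and the mean of NFKBIB is above those of NFKBIE, NFKBIA, RELA and CHUK after RNF6 siRNA, although in RNF6 siRNA library 2 NFKBIB (15.1 RPKM) is below NFKBIA (16.0 RPKM).

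The members also varied among control libraries. Control library 1 had the lowest control level of 7 of the 10 genes and the highest of 2, CHUK and TNFAIP3, while control library 2 had the highest of 6. In the RNF6 siRNA group, library 1 was highest for 6 genes and library 3 lowest for 5. By read share, the libraries were also unequal outside the genes: reads without a feature made up 5.90% to 9.04% of listed reads in control and 7.26% to 9.23% in RNF6 siRNA libraries, ranges that overlap. The part of these differences in the results was not tested.

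**Figure D4:**
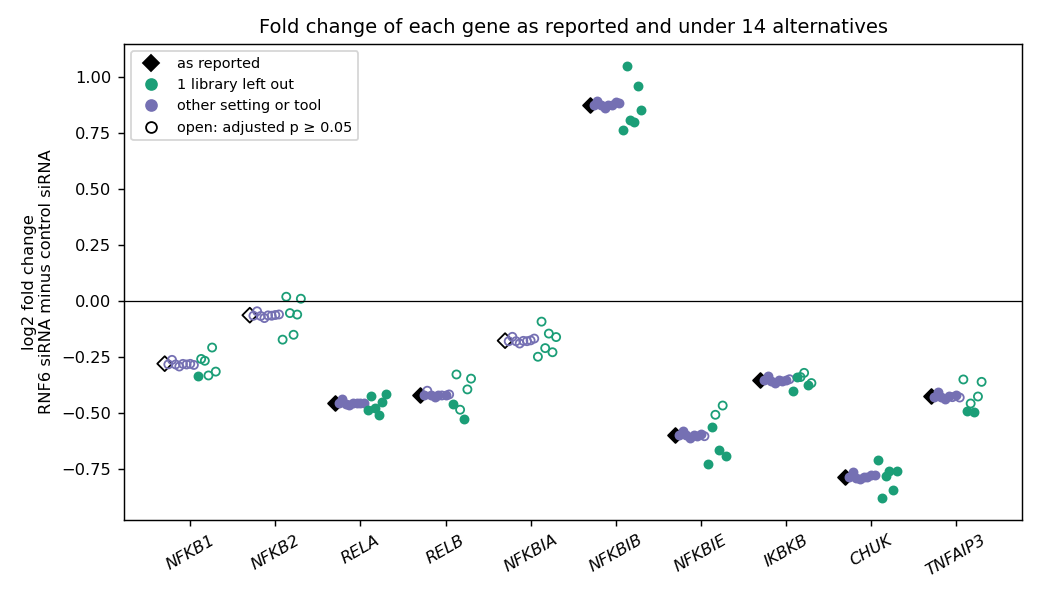
Log2 fold change of each gene (vertical axis) as reported (diamonds), with 1 library left out (green circles) and under other settings or tools (purple circles), filled where the adjusted p was below 0.05 and open where it was not. RELA, NFKBIB and CHUK are filled throughout, and the points of NFKB2 lie on both sides of 0.

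Other proteins of the core were described from a list of 10: further subunits, IκB-like proteins, the IKK scaffold and nuclear modulators. Of the 10, 2 fell, 1 rose and 7 did not pass, and the share called (30%) was near that of all tested genes. NFKBIZ, a nuclear IκB-like coactivator, was at 12.4, 10.5 and 16.0 CPM in control and 8.37, 6.64 and 8.61 CPM in RNF6 siRNA libraries, a fall of 1.63-fold (adjusted p = 0.00994) that did not pass without control library 3 (0.0675), where the alternatives spanned 5.09e-04 to 0.0675. NKIRAS2 and NKIRAS1 encode Ras-like proteins that bind IκB. NKIRAS2 rose 1.35-fold, from 44.5 ± 1.57 to 60.2 ± 4.23 CPM (adjusted p = 0.00692). NKIRAS1 fell 1.26-fold (adjusted p = 0.0494), and its call ended in 10 of the 14 alternatives, among them each library left out except control library 3. The alternatives spanned 0.0450 to 0.150. REL and IKBKG were chosen after their values were seen. REL, the remaining subunit, was at 7.13 ± 3.09 and 9.38 ± 3.34 CPM (adjusted p = 0.320). IKBKG, the scaffold NEMO, was at 5.33 ± 1.73 and 4.86 ± 0.925 CPM (adjusted p = 0.728), and its level is uncertain because it has a near-identical pseudogene, IKBKGP1, which was listed with at most 1 read in a library. The median log2 fold change of this list was −0.14.

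Upstream of the IκB kinases, 12 of 33 listed kinases, adaptors and ubiquitin enzymes fell, 3 rose and 18 did not pass, a share called of 45.5% beside 32.7% of all tested genes (16.1% lower, 16.6% higher), with a median log2 fold change of −0.21. Leaving out any 1 library kept the count of lower genes between 11 and 13. MYD88, an adaptor that Toll-like receptors and the interleukin-1 receptor share, was at 25.7, 30.6 and 28.4 CPM in control and 5.61, 4.43 and 6.10 CPM in RNF6 siRNA libraries. It fell 5.15-fold (adjusted p = 8.81e-07, log2 fold change −2.37 with SE 0.151), a larger change than that of any of the 10 core genes. IRAK1, a kinase recruited by it, was at 81.0, 83.7 and 80.0 CPM in control and 41.7, 36.3 and 37.5 CPM after RNF6 siRNA, a fall of 2.12-fold (adjusted p = 1.17e-05, log2 fold change −1.08 with SE 0.104). IRAK4, named here only after its values were seen, also fell 1.43-fold. TRAF6, the ubiquitin ligase below these kinases, rose instead, from 12.97 ± 1.28 to 21.2 ± 1.02 CPM, or 1.64-fold (adjusted p = 0.00124).

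TANK, an adaptor of the IKK-related kinases that binds TRAF proteins, was at 93.7, 75.0 and 78.8 CPM in control and at 31.6, 38.5 and 27.2 CPM in RNF6 siRNA libraries. The lowest control library held 36.5 CPM more than the highest RNF6 siRNA library, and TANK fell 2.56-fold (adjusted p = 1.87e-05, log2 fold change −1.36 with SE 0.139). IKBKE, one of the IKK-related kinases, named here only after its values were seen, also fell 1.97-fold from a low level of 6.47 ± 0.241 to 3.15 ± 1.08 CPM. TRAF3, which keeps the non-canonical kinase NIK unstable, rose 1.67-fold, from 40.3 ± 0.316 to 67.3 ± 2.45 CPM (adjusted p = 1.43e-04). MAP3K14, the gene of NIK, named here only after its values were seen, fell by contrast 1.35-fold (adjusted p = 0.0219), but did not pass in 5 of the 14 alternatives. Among them were the fits without control library 2 (0.0639) or 3 (0.0792) and without RNF6 siRNA library 2 (0.0819) or 3 (0.0527). The alternatives spanned 0.00282 to 0.0928.

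MALT1, the paracaspase that works with BCL10 in antigen receptor and related signalling, fell 1.82-fold, from 91.8 ± 14.95 to 50.4 ± 4.55 CPM (adjusted p = 3.06e-04). BCL10, named here only after its values were seen, also fell 1.48-fold. BTRC encodes β-TrCP1, the F-box protein that recognises phosphorylated IκB. It was at 90.5, 88.4 and 90.8 CPM in control and 55.5, 58.9 and 58.4 CPM in RNF6 siRNA libraries, groups that were far apart relative to their spread. BTRC fell 1.56-fold (adjusted p = 3.26e-04, log2 fold change −0.64 with SE 0.0970), and its close relative FBXW11, β-TrCP2, named here only after its values were seen, also fell 1.57-fold. Also chosen after their values were seen, RIPK1, a kinase of the tumour necrosis factor receptor complex, fell 1.56-fold and the deubiquitinase gene CYLD 1.42-fold. TNIP1, an A20-binding inhibitor, rose 1.48-fold, from 40.5 ± 3.15 to 59.9 ± 7.33 CPM (adjusted p = 0.00314).

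**Figure D5:**
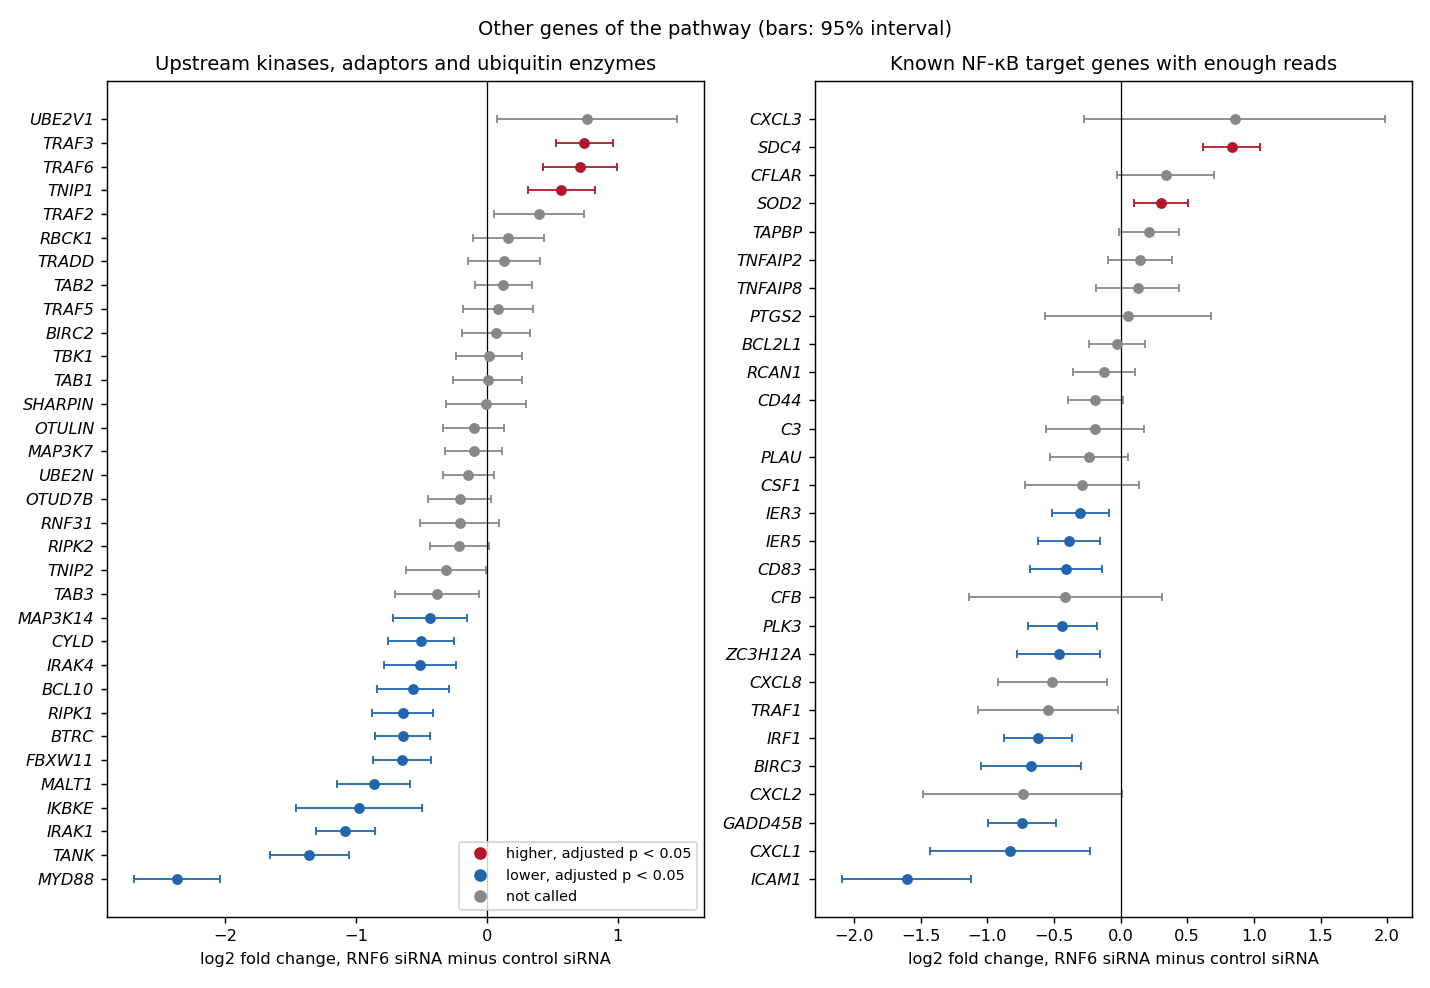
Log2 fold change, RNF6 siRNA minus control siRNA (horizontal axis), with 95% intervals for the 33 upstream genes (left) and the 28 tested target genes (right), coloured by whether they passed an adjusted p below 0.05. Of the upstream genes 12 are lower and 3 higher, and of the targets 10 are lower and 2 higher.

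Genes known as transcriptional targets of NF-κB, with the 10 members left out, numbered 52. Only 28 had enough reads to be tested: the other 24 did not exceed 1.01 CPM in any library, and IL6 and VCAM1 had 0 reads. Many of the cytokines of this list therefore had too few reads to be tested. An absent transcript and lack of depth cannot be told apart for them. Of the 28, 10 fell, 2 rose and 16 did not pass, a share called of 42.9% beside 32.7% of all tested genes (16.1% lower, 16.6% higher), with a median log2 fold change of −0.30. The count of lower genes was 5 without control library 3, 6 without RNF6 siRNA library 2 and 3 without RNF6 siRNA library 3. That of higher genes was 1 without control library 2 or 3, or without any 1 of the RNF6 siRNA libraries. Calls over all tested genes also changed in number with 1 library left out, as given in the last section.

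ICAM1, an adhesion molecule for leukocytes, was at 7.02, 6.04 and 6.19 CPM in control and 2.48, 2.36 and 1.52 CPM in RNF6 siRNA libraries. It fell 3.04-fold (adjusted p = 1.79e-04, log2 fold change −1.61 with SE 0.224) from counts of at most 58 reads. GADD45B, a stress-induced regulator of MAP kinase signalling, was at 36.7, 42.5 and 42.2 CPM in control and 25.7, 22.3 and 24.7 CPM in RNF6 siRNA libraries, a fall of 1.67-fold (adjusted p = 4.46e-04). The transcription factor gene IRF1 fell 1.54-fold (adjusted p = 0.00163). BIRC3, an inhibitor of apoptosis, fell 1.59-fold (adjusted p = 0.0103), but did not pass without RNF6 siRNA library 3 (0.0677), and the alternatives spanned 1.94e-04 to 0.0677. PLK3, a stress-response kinase gene, fell 1.35-fold (adjusted p = 0.0134), but did not pass in 3 of the 14 alternatives. Among them were the fits without RNF6 siRNA library 2 (0.0595) or 3 (0.0793), and the alternatives spanned 0.00333 to 0.0793. The other genes of the 10 were CXCL1, IER3, IER5, CD83 and ZC3H12A, named after their values were seen. None of these 5 passed without control library 3 (adjusted p of 0.0512 to 0.145) or without RNF6 siRNA library 3 (0.0511 to 0.157).

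Of the 2 targets that rose, SDC4, a cell-surface proteoglycan, was at 124.6, 112 and 109 CPM in control and 205, 218 and 192 CPM in RNF6 siRNA libraries, a rise of 1.78-fold (adjusted p = 5.57e-05, log2 fold change 0.83 with SE 0.0990). SOD2, the mitochondrial superoxide dismutase, was at 88.7 ± 1.29 and 109 ± 1.56 CPM, a rise of 1.23-fold (adjusted p = 0.0248). The SOD2 call ended in 7 of the 14 alternatives, among them without control library 2 (0.0559) or 3 (0.108). It also ended without RNF6 siRNA library 1 (0.0742), 2 (0.0582) or 3 (0.0811) and without the filter on low counts (0.0854). The alternatives spanned 0.0196 to 0.129.

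Among 11656 tested genes outside the lists with a mean of at least 5 CPM, those most like CHUK over the 6 libraries were IMPA1, FYTTD1 and IFIT5. Likeness was the root mean square difference of log2(CPM + 0.5), each gene relative to its control mean, and it was 0.0436 for IMPA1, 0.0524 for FYTTD1 and 0.0546 for IFIT5. IMPA1 fell 1.79-fold, FYTTD1 1.68-fold and IFIT5 1.71-fold. Falls close to that of CHUK follow from the way these genes were picked.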

How the data were processed

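For each of the 6 libraries the authors deposited raw counts, as whole numbers listed by gene symbol. The submitters' processing notes name TopHat2 2.0.11, HTSeq and the build hg19. The sources used here do not give the HTSeq version, strand setting or annotation release. Rows that name no gene held 27.3% to 29.4% of listed reads and were left out.

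Counts were tested in R 4.3.3 with edgeR 4.0.16: filterByExpr (minimum count 10, minimum total 15), TMM scaling, and a two-sided robust quasi-likelihood test with the group as its only term, adjusted by Benjamini-Hochberg over 14685 genes. Adjusted p-values come from it except where DESeq2 or limma-voom is named, and a gene was called below 0.05. Standard errors are the absolute log2 fold change over the square root of F. The test was also run on simulated counts in which few genes changed, equally in both directions. That setting is unlike these data, where many genes were called. Alternatives were other scalings and filters, DESeq2 1.42.0, limma-voom 3.58.1, a replicate block and each library left out.

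Members and lists were chosen with earlier results of these data known. Named genes are RNF6, the members, up to 5 called genes per direction and list by smallest p, the most abundant cell type markers and the 3 genes most like CHUK, and further called genes are marked in the text as picked with their values known. Further cell type markers and the targets at 0 reads were also picked that way, and SIRT2, ERLIN1 and IKBKGP1 for their overlap or likeness with a listed gene. GENCODE 29 and RefSeq tables, on GRCh38, served only for exon length, overlap and promoter sequence.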

Additional observations from a re-analysis of the deposited data

How the results depend on the processing

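RELA, NFKBIB, CHUK and NFKBIA kept direction and side of the threshold in all 14 alternatives. The cause of the changes given here was not tested. The RELB call ended with upper-quartile scaling (log2 fold change −0.40), and those of RELB (−0.42) and TNFAIP3 (−0.43) with DESeq2. With upper-quartile scaling, DESeq2 or limma-voom, 1 gene of the other core list fell, and without the filter on low counts 1 target rose.

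With 1 library left out, log2 fold changes ran from −0.33 to −0.21 for NFKB1, −0.17 to 0.0195 for NFKB2, −0.25 to −0.09 for NFKBIA, −0.53 to −0.33 for RELB, −0.73 to −0.47 for NFKBIE, −0.40 to −0.32 for IKBKB and −0.50 to −0.35 for TNFAIP3. NFKB2 turned sign when control replicate 2 (0.0195) or RNF6 siRNA replicate 3 (0.0106) was left out. Genes called lower numbered 2 to 6 of the 10, 1 to 2 of the other core list and 3 to 10 of the targets, and targets called higher 1 to 3. Over all genes, 1514 to 2910 were higher and 1478 to 2967 lower, against 2442 higher and 2364 lower as reported.

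The labels do not say whether same-numbered libraries were paired. Deviations from the group mean correlated at −0.463, −0.252 and 0.0519 between same-numbered libraries. Between differently numbered libraries of the 2 groups they correlated at −0.244 to 0.461. A batch shared between the groups was not tested. With the replicate block, 2 of the 10 genes were called lower, and the calls of RELB (−0.42), NFKBIE (−0.60), IKBKB (−0.35) and TNFAIP3 (−0.43) ended. The block gave 1421 higher and 1321 lower genes in all, 0 higher and 1 lower in the other core list, where NKIRAS2 no longer passed (adjusted p = 0.0570), and 1 higher and 4 lower among the targets. The calls of SOD2 and PLK3 were among those of the targets that ended with the block. The scarcer genes are limited most: 24 of 52 targets had too few reads to be tested.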
